A study of Mus musculus with 6 samples.

Results

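Interleukin-6 family cytokines, the receptor chains that bind them, the transcription factor STAT3 and its inhibitor SOCS3 were followed in mouse spinal cord. The 10 genes were taken by symbol. The rule itself used no measured values, but the genes were chosen with earlier results of these data known. They are Il6, Lif, Osm, Il11 and Clcf1 (ligands), Il6st, Lifr and Osmr (receptor chains), and Stat3 and Socs3. All 10 symbols matched 1 row each among the 43432 gene identifiers. Cord tissue came from wildtype C57BL/6 mice. The injured group (SCI, 3 mice) had a laminectomy, the removal of bone over the cord, and a contusion of 50 kdyn on 1 side at cervical level 5, and was collected after 4 h. The blow came from the Infinite Horizon device. The control group (sham, 3 mice) had the laminectomy alone at that level, and its time of collection is not stated. A sham library therefore also follows surgery, and no unoperated cord was analysed here. RNA came from whole tissue, so fewer cells of a type and less RNA per cell cannot be told apart.

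The cytokines of this family act through complexes that all hold gp130, the protein of Il6st. IL-6 and IL-11 pair their own receptor with gp130, LIF and CLCF1 bring in the LIF receptor, and oncostatin M uses the OSM receptor. JAK kinases bound to these chains phosphorylate STAT3, which enters the nucleus and switches on target genes. Socs3 is among those targets, and its protein binds gp130 and the JAKs and damps the signal. In injured cord the pathway is known for its part in astrocyte reactivity and in the border that astrocytes form around a lesion.

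The libraries held 3407176 to 11543633 counts of reads near the 3′ ends of transcripts. Levels are given as TMM-scaled CPM, CPM being counts scaled to a common library size and TMM edgeR's correction for library composition. They are not divided by transcript length, because such a library gives reads from 1 end of each transcript. Markers of neurons and oligodendrocytes were present throughout, with summed levels of at least 4429 and 5678 CPM, and so were hepatocyte markers (46771 to 106076 CPM, highest in sham 2 and lowest in sham 3). All 12 hepatocyte markers were detected in this cord tissue, led by Alb and Ttr. That sum was 59217 to 69369 CPM in SCI and lay within the sham range. Values with the hepatocyte level as a covariate are given beside results that change with it.

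Promoter sequence is shown for Il6, Il11 and Socs3, whose groups did not overlap and which had a match to an inducible element upstream of a start site. The RefSeq table of promoters (GRCm38.p6) held 8 of the 10 genes in 10 windows. The 250 bases before each start were searched on both strands for 4 elements. These were the STAT palindrome TTCNNNGAA, its STAT3 form TTCCNGGAA (a subset of the palindrome), the AP-1 element TGANTCA and the NF-kB element GGANTTTCC. Among all 32851 windows of that length, they matched in 7.02%, 0.913%, 6.75% and 1.07%. Capitals mark the matches below, and each sequence runs 5′ to 3′ on the gene's strand.
Il6 (chr5:30012864-30013113, plus strand): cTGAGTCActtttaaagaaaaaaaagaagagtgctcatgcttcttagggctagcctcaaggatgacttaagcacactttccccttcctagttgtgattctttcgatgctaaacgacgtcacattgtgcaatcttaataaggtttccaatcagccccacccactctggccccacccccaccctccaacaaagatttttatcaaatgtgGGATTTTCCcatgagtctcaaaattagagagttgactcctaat
Il11 (chr7:4778142-4778391, minus strand): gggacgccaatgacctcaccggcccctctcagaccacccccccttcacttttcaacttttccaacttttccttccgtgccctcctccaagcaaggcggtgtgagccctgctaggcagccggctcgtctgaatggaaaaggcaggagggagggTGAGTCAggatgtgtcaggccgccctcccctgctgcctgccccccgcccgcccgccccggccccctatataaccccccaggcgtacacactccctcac
Socs3 (chr11:117969452-117969616, minus strand): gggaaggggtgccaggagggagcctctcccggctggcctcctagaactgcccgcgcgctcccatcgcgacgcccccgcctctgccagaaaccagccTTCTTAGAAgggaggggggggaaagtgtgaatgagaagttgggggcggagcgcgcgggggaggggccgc

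The Il6 window ends at the base before its start site and holds an AP-1 match at bases 249 to 243 upstream and an NF-kB match at bases 43 to 35. The Il11 window precedes the downstream of 2 RefSeq starts, lies inside the gene between annotated exons of its longer transcripts, and holds an AP-1 match at bases 98 to 92. The Socs3 stretch covers bases 250 to 86 upstream of its RefSeq start, without the part that is exon of a noncoding Socs3 transcript, and holds the STAT palindrome at bases 154 to 146. It lies inside the annotated span of Socs3. Lif had an AP-1 match at bases 228 to 222. The windows of Il6st, Lifr, Osmr and Stat3 held none of these letters, nor did that of the upstream Il11 start. A match describes letters and is not a measured binding site.

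Among the ligands, Il11 rose after contusion and Il6 was detected in SCI alone. IL-11 is a cytokine best known from stromal and epithelial cells. Its gene lies on chromosome 7 from 4772373 to 4782859 (GRCm38, minus strand, ENSMUSG00000004371). Sham libraries 1 to 3 had 4, 2 and 0 counts of Il11, and SCI libraries 1 to 3 had 14, 57 and 32. Scaled, that was 0.525, 0.193 and 0 CPM in sham against 1.69, 8.23 and 6.34 CPM in SCI. Every SCI library was above every sham library, with SCI 1 far below the other two. Means were 0.239 ± 0.266 and 5.42 ± 3.36 CPM (SD, n = 3 mice each). The log2 fold change was 4.20 ± 0.74 (SE), with an adjusted p of 0.00820 in edgeR's quasi-likelihood test over 13560 genes. The call did not hold in every fit. Without SCI 2, the highest library, the log2 fold change was 3.74 and the edgeR adjusted p 0.0722, and limma voom gave 3.98 with an adjusted p of 0.0808. Leaving out sham 1 raised the log2 fold change to 5.08. Il11 passed the filter on low counts, about 1.42 CPM in at least 3 libraries, through its SCI libraries alone.

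Il6, the founding cytokine of the family and a driver of the acute phase response, is on chromosome 5 from 30013114 to 30019981 (plus strand, ENSMUSG00000025746). It had no count in any sham library and 5, 3 and 16 counts in SCI 1 to 3. In scaled values the SCI libraries were at 0.604, 0.433 and 3.17 CPM. SCI 3 held 16 of the 24 counts. A count of 0 allows up to 0.880 CPM in sham 3, the shallowest library, so SCI 1 and SCI 2 lay within that limit. Taking 3 counts for the whole sham group as the limit that 0 allows, the SCI sum of Il6 was 8.97-fold above that limit, scaled for depth. The 95% counting interval of the ratio, which also takes in counting error in SCI, begins at 6.75. The floor-based value fell to 4.08 without SCI 3, 4.38 without sham 2 and 5.95 without sham 1. Il6 did not pass the filter on low counts. Its group means gave p = 0.1 in an exact permutation test (two-sided), the smallest that 3 against 3 allows. With no filter, edgeR called it (log2 fold change 6.24, a value that depends on the prior count, adjusted p = 0.00794).

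The other ligands were at or near the limit of these libraries. Lif (chromosome 11, 4257557 to 4272514, plus strand), a cytokine released by glia and Schwann cells after nerve injury, had no count in sham and 3, 0 and 1 in SCI. Its SCI sum of 4 counts is 1.5-fold above the same floor, but the 95% counting interval of the ratio begins at 0.741, so no difference was detectable at this depth. Clcf1 (chromosome 19, 4214238 to 4223490, plus strand), a ligand of the CNTF receptor, had 3, 9 and 1 counts in sham and 7, 4 and 0 in SCI, a ratio of 0.949 (95% counting interval 0.385 to 2.30). Its groups overlapped. Exon sequence of Clcf1 overlaps the span of another gene on the same strand (AC109138.7), so its reads are uncertain. Osm, 16530 bases from Lif (chromosome 11, 4236420 to 4241026, plus strand), which encodes oncostatin M, a product of activated neutrophils and macrophages, had 0 counts in all 6 libraries. That allows up to 0.133 CPM over the 22542135 counts of the sham group and 0.149 CPM over the 20094176 of SCI. Neutrophil markers were present in every library, led by S100a9 and S100a8, at 20.1 to 50.2 CPM summed over 10 genes in sham and 56.3 to 77.5 CPM in SCI.

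**Figure D1:**
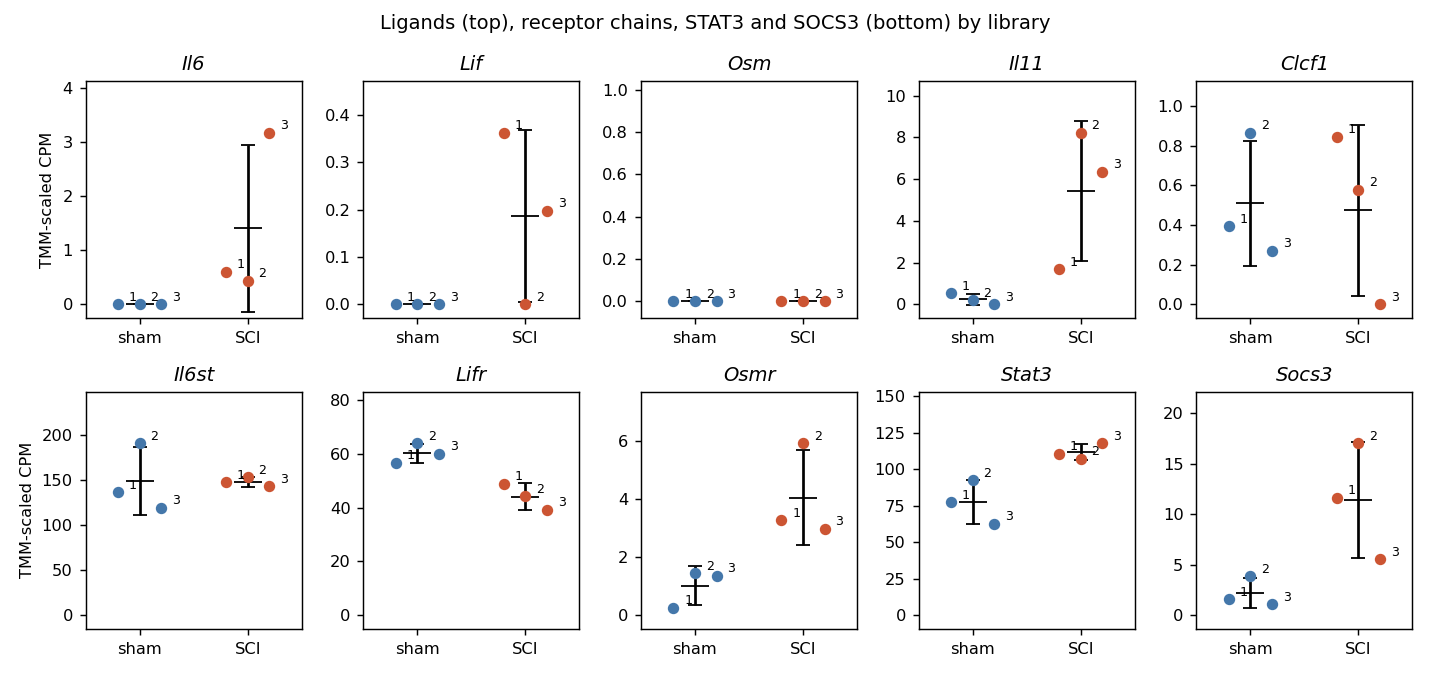
TMM-scaled CPM (y axis, linear, a separate scale in each panel) of the 10 genes in the 3 sham and 3 SCI libraries, numbered by replicate, with bars for the group mean and SD. Il11, Osmr, Stat3 and Socs3 had SCI points above all sham points, Il6 had no count in sham, Lifr lay lower in SCI, and Il6st overlapped.

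None of the 3 receptor chains passed the test. Osmr had higher values after injury, Lifr lower ones, and Il6st overlapped between the groups. Osmr, the chain that gives cells their response to oncostatin M, lies on chromosome 15 from 6813577 to 6874969 (minus strand, ENSMUSG00000022146). Osmr levels in sham 1 to 3 were 0.263, 1.44 and 1.36 CPM, and those in SCI 1 to 3 were 3.26, 5.92 and 2.97 CPM. The groups did not overlap, and SCI 2 was the highest library. Means were 1.02 ± 0.658 and 4.05 ± 1.62 CPM, a 4.01-fold difference in the fit (log2 fold change 2.0 ± 0.55). The unadjusted edgeR p was 0.00229 and the adjusted p 0.177. Over 14 alternatives the adjusted p ranged from 0.0120 with no filter on low counts, where edgeR called Osmr, to 0.626 without SCI 2.

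Lifr, the chain shared by LIF, CLCF1 and CNTF, lies on the same chromosome from 7090614 to 7197489 (plus strand, ENSMUSG00000054263), 215644 bases from Osmr. Lifr levels were 56.7, 63.9 and 59.9 CPM in the sham libraries and 49.0, 44.2 and 39.3 CPM in the SCI libraries. All SCI libraries were below all sham libraries. The log2 fold change was -0.45 ± 0.17, with an unadjusted edgeR p of 0.0206 and an adjusted p of 0.500. Il6st, the shared gp130 chain (chromosome 13, 112464070 to 112510086, plus strand, ENSMUSG00000021756), had 136, 191 and 119 CPM in the sham libraries and 147, 153 and 143 CPM in the SCI libraries. The SCI values lay inside the sham range, with a log2 fold change of -0.01 ± 0.20 (edgeR adjusted p = 0.995). Sham 2, the highest of the sham libraries for Il6st, was also the highest for hepatocyte markers, and sham 3 was the lowest for both. Given a covariate for that level, the log2 fold change of Il6st was 0.06 ± 0.12 (edgeR adjusted p = 0.874), and that of Lifr was -0.44 ± 0.14 (0.152).

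Stat3 had values after injury that lay above the whole sham range, but it was not called. STAT3 is the transcription factor that carries the signal of gp130 to the nucleus. Its gene lies on chromosome 11 from 100885098 to 100939540 (minus strand, ENSMUSG00000004040). Stat3 levels were 77.3, 92.4 and 62.6 CPM in the sham libraries and 111, 107 and 118 CPM in the SCI libraries. The SCI libraries were close to each other, and the sham libraries spread more. The means were 77.5 ± 14.9 and 112 ± 5.34 CPM, and the log2 fold change was 0.52 ± 0.19. The unadjusted edgeR p was 0.0131 and the adjusted p 0.428. In sham its order followed the hepatocyte markers, highest in sham 2 and lowest in sham 3. With the hepatocyte level as a covariate the log2 fold change was 0.58 ± 0.12 and Stat3 was called (edgeR adjusted p = 0.00546). The 3′ end of Stat3 overlaps that of Stat5a on the other strand (chromosome 11, 100885098 to 100885169), and the strand setting of the counting is not given in the sources used here. Stat5a levels were 4.07 ± 1.19 CPM (sham) and 5.68 ± 0.415 CPM (SCI), far below those of Stat3. The effect of the overlap on the counts of either gene was not tested.

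Socs3, the feedback inhibitor, was with Il11 the other gene of the 10 called higher in the fit of all libraries. It lies on chromosome 11 from 117966079 to 117970047 (minus strand, ENSMUSG00000053113). Sham libraries had 12, 40 and 4 counts and SCI libraries 96, 118 and 28. Scaled, the sham levels were 1.58, 3.85 and 1.08 CPM and the SCI levels 11.6, 17.0 and 5.55 CPM. The groups did not overlap, but SCI 3 at 5.55 CPM was close to sham 2 at 3.85 CPM. The log2 fold change was 2.26 ± 0.45 (edgeR adjusted p = 0.0208). Leaving out SCI 2, sham 1 or SCI 1 raised the edgeR adjusted p to 0.162, 0.155 and 0.0646, and limma voom gave 0.0733, so the call did not hold there. Without sham 2, the sham library with the most Socs3 and the most hepatocyte RNA, the log2 fold change was 3.02. The call held with the hepatocyte level as a covariate (2.50 ± 0.49, edgeR adjusted p = 0.0148).

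In all, 6 of the 10 genes passed the filter on low counts. Of these, 2 were called higher and none lower, where 0.885% of all 13560 tested genes were higher and 0.0442% lower. Il11, Osmr and Socs3 reached the filter's level in fewer than 3 sham libraries, so they passed only with the SCI libraries, and the share of called genes among those that passed is not read further. Of the 6 tested genes, 4 had higher values in all SCI libraries than in all sham libraries (Il11, Osmr, Stat3 and Socs3) and 1 had lower ones (Lifr). Over all tested genes the groups were apart in that way for 7.73% (higher) and 5.94% (lower). For 3 of those 4 the place among the tested genes itself came from the SCI libraries. Il6, not tested, had counts in SCI alone. An unadjusted edgeR p under 0.05 for a lower level was found for Lifr alone, and DESeq2 also called none of the 10 lower.

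Levels differed widely among the 10 genes, in TMM-scaled CPM that does not scale with transcript length. In sham, Il6st was highest (148 ± 37.5 CPM), followed by Stat3 and Lifr, whose ranges overlapped, and then with a wide gap by Socs3 at 2.17 ± 1.48 CPM. From Socs3 down, Osmr, Clcf1 and Il11 overlapped with their neighbours in turn, and Il6, Lif and Osm were at 0. In SCI, Il6st, Stat3 and Lifr stood apart from each other, and Lifr from Socs3 (11.4 ± 5.75 CPM). Socs3, Il11 and Osmr followed with overlapping ranges, and the mean of Il11 was above those of Osmr and Clcf1. The receptor chain shared by all ligands had a mean of 148 ± 5.08 CPM in SCI, while the highest ligand value in any library was 8.23 CPM (Il11, SCI 2).

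Ratios of raw counts within a library do not depend on the scaling. They were chosen after the values were seen and are given without a test. Socs3 had 2.04, 4.17 and 1.73 counts per 100 counts of Stat3 in sham and 10.5, 15.9 and 4.71 in SCI. The lowest SCI ratio, in SCI 3, was just above the highest sham ratio, in sham 2. Stat3 had 56.9, 48.5 and 52.7 counts per 100 of Il6st in sham and 75.1, 70.2 and 82.5 in SCI, so the groups stood well apart. Osmr had 0.193, 0.758 and 1.14 counts per 100 of Il6st in sham and 2.21, 3.87 and 2.08 in SCI. Lifr had 41.7, 33.6 and 50.5 in sham and 33.2, 28.9 and 27.5 in SCI, where SCI 1 was only just below sham 2. Each SCI library thus had more Osmr and less Lifr per Il6st than any sham library.

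**Figure D2:**
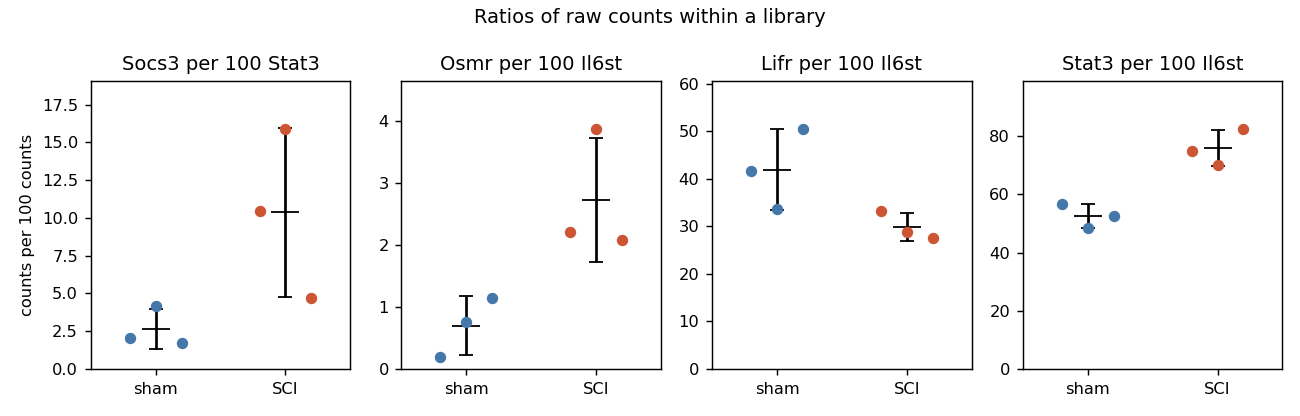
Counts of 1 gene per 100 counts of another in the same library (y axis, linear from 0) for the 3 sham and 3 SCI libraries, with bars for the mean and SD. Socs3 per Stat3, Osmr per Il6st and Stat3 per Il6st were higher, and Lifr per Il6st lower, in every SCI library than in every sham library.

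Of 6 further lists, only that of STAT3-responsive genes held called genes in the fit of all libraries. That list was the longest (28 genes), was chosen with results of these data known, and holds genes that also respond to other inputs. Which input raised its called genes was not tested. Among other ligands and their partner chains, 1 of 6 passed the filter, Ebi3, a subunit of IL-27, with overlapping groups and a log2 fold change of -0.20 ± 0.49. Cntf, a survival factor of motor neurons held in glia and chosen after its values were seen, had 7, 5 and 1 counts in sham and none in SCI. With 3 counts for the whole SCI group as the limit, the sham sum of 13 counts was 3.86-fold above it, scaled for depth. That value leaves out counting error in sham. Its annotated span lies within that of Zfp91 on the same strand, and reads between them are uncertain. Of the other receptor chains, 3 of 4 were tested and none was called. Il11ra1, the receptor of IL-11, had a mean of 41.1 ± 7.13 CPM (sham) and 45.5 ± 8.02 CPM (SCI), a log2 fold change of 0.14 ± 0.20. The span of Il11ra1 overlaps other genes, among them Galt on the same strand, so its reads are uncertain to that extent. Cntfr had a log2 fold change of 0.06 ± 0.32. None of the 6 JAK kinases and other STAT factors was called, and Stat5a and Stat5b had the smallest p, at log2 fold changes of 0.42 ± 0.32 and 0.27 ± 0.22. No gene of these 3 lists had an unadjusted edgeR p under 0.05, and DESeq2 called none.

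Other inhibitors of JAK-STAT signalling were not called in the fit of all libraries (0 of 14 tested), although 4 had an unadjusted edgeR p under 0.05. Over all 13560 tested genes, 1001 had such a p. Ptpn1, a tyrosine phosphatase that acts on JAKs, had levels of 40.8, 38.4 and 38.0 CPM in the sham libraries and 59.4, 64.5 and 68.6 CPM in the SCI libraries. All SCI libraries were above sham by a wide gap. Its log2 fold change was 0.71 ± 0.17 (edgeR adjusted p = 0.0727), and it was called in 3 alternatives. Those were edgeR without a filter (adjusted p = 0.0484), the DESeq2 Wald test (0.0244) and edgeR with the hepatocyte level as a covariate (log2 fold change 0.71 ± 0.14, adjusted p = 0.00365). Ptpn2, a phosphatase of STATs and JAKs, had a log2 fold change of 0.70 ± 0.24 (edgeR adjusted p = 0.371). The median over the 14 was 0.03, against -0.0025 over all genes tested. Socs1, another inhibitor of JAKs, had 4 counts in sham and 5 in SCI.

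Of 25 tested genes known to respond to STAT3 outside the liver, 5 were called higher, none lower and 20 were not called. Their log2 fold changes were positive for 21, with a median of 0.45. All SCI values lay above all sham values for 11 of the 25 and below them for 1. Over all 13560 tested genes 0.885% were called higher and 0.0442% lower, and 6734 had a positive log2 fold change. Groups were apart for 7.73% (higher) and 5.94% (lower) of them. Of the 25, 3 passed the filter on low counts only with their SCI libraries, among them the called genes Timp1 and Ccl2, so these counts are not read further. These genes also respond to other inputs, such as AP-1 and NF-kB, and the list was chosen with results of these data known. Some genes not called followed the order of the hepatocyte sums in sham, such as Serpina3n (295, 436 and 202 CPM in sham 1 to 3). Others did not, such as Gfap (318, 265 and 280 CPM). Both are named after their values were seen, and the part of hepatocyte RNA was not tested. Cebpd, a transcription factor of the acute phase response, had 8.53, 8.09 and 6.24 CPM in the sham libraries and 36.4, 48.7 and 36.3 CPM in the SCI libraries (log2 fold change 2.38 ± 0.22, edgeR adjusted p = 5.74e-05). Timp1, an inhibitor of metalloproteinases, had 0.788, 2.31 and 1.36 CPM in the sham libraries and 9.91, 22.5 and 27.2 CPM in the SCI libraries (log2 fold change 3.63 ± 0.43, edgeR adjusted p = 0.000404). Junb, an AP-1 subunit, went from 12.1, 23.8 and 13.6 CPM to 51.6, 52.4 and 39.6 CPM (log2 fold change 1.51 ± 0.25, edgeR adjusted p = 0.00426). Each of these 3 had its lowest SCI value well above its highest sham value. Bcl2l1, which protects cells from apoptosis, rose by 0.89 ± 0.17 on the log2 scale (edgeR adjusted p = 0.0186). Ccl2, a chemokine of monocytes, rose by 3.36 ± 0.61 (edgeR adjusted p = 0.00994). The calls of Cebpd and Timp1 held without each single library. Without sham 1 these 2 were the called genes of the list, with an edgeR adjusted p of 0.0542 for Junb, 0.0827 for Ccl2 and 0.236 for Bcl2l1. Without SCI 2 there were 3, with Ccl2 at 0.0999 and Bcl2l1 at 0.0995 (edgeR adjusted p), and 10 with a covariate for the hepatocyte level. Bcl2l1 was also not called without SCI 1 (edgeR adjusted p = 0.0593) or SCI 3 (0.104). Without sham 2 the log2 fold changes of Ccl2 and Timp1 were 4.43 and 4.28. The spans of Cebpd, Timp1, Junb and Ccl2 overlap other genes on the opposite strand, and their reads are uncertain to that extent.

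**Figure D3:**
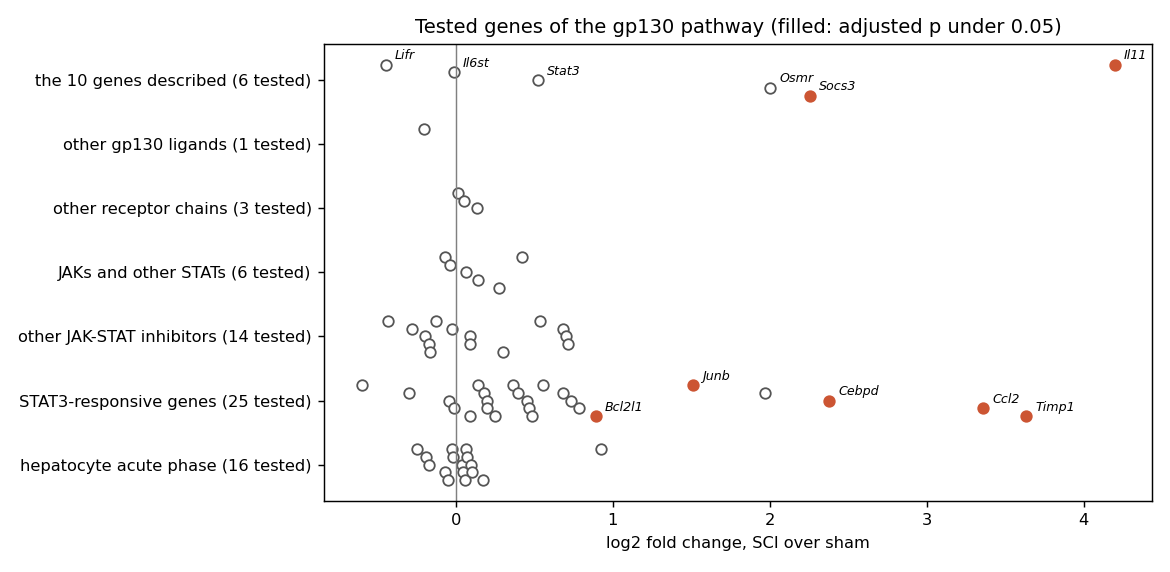
log2 fold change of SCI over sham (x axis) for the tested genes of each list (y axis, spread for legibility), filled where the adjusted p was under 0.05. The filled points are Il11 and Socs3 in the top row and 5 STAT3-responsive genes from Bcl2l1 (0.89) to Timp1 (3.63).

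Genes listed as acute phase genes of hepatocytes, a class that STAT3 induces in liver, were not called. All 16 were tested, with 0 calls by edgeR or DESeq2, and 1 had an unadjusted edgeR p under 0.05. Their median log2 fold change was 0.04. Fgb, a fibrinogen chain, had a log2 fold change of -0.25 ± 0.31, and of -0.10 ± 0.11 with the hepatocyte covariate. Its levels in sham libraries 1 to 3 were 4173, 6562 and 2881 CPM, in the order of the hepatocyte sums. Every other gene of this list except A2m had that order in sham. The part of hepatocyte RNA in these levels was not tested, so the list is not read as a response of cord cells. A2m, a protease inhibitor, was the gene with the small p, with 13.7 ± 7.37 CPM (sham) and 24.9 ± 9.85 CPM (SCI), and its groups overlapped (log2 fold change 0.92 ± 0.38, edgeR adjusted p = 0.559). In sham libraries 1 to 3 A2m was at 15.8, 5.49 and 19.8 CPM, the reverse of the order of the hepatocyte sums. When low counts were kept, edgeR called A2m (adjusted p = 0.0147).

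Markers of other cells moved with the injured group in part. Summed neutrophil markers were higher in every SCI library than in every sham library, with 0 of 7 tested members called over all genes, and so were erythroid markers (618 to 846 CPM in sham, 1590 to 4286 CPM in SCI, 5 of 6 tested members called higher). Over all tested genes 0.885% were called higher, and 7.73% had SCI values above all sham values. That second share is of single genes and is no background for a sum of several genes. Summed markers of monocytes and macrophages (518 to 1094 CPM in sham, 732 to 957 CPM in SCI), of homeostatic microglia (206 to 243 and 188 to 228 CPM) and of astrocytes (2199 to 3341 and 2851 to 3000 CPM) overlapped. The monocyte and macrophage sum was led by F10 and Fn1, which liver also expresses, and in sham it followed the hepatocyte sum, highest in sham 2 and lowest in sham 3. The part of hepatocyte RNA in that sum was not tested. Every marker of these 5 lists had counts (8 erythroid genes, 10 in each other list). Of their tested members, 1 monocyte and 1 astrocyte marker were called higher and 1 microglial marker lower. The part of infiltrating or blood cells in the levels of Il6, Il11, Osmr and Socs3 was not tested. T and B cell markers were at 0.813 to 5.80 CPM in sum, with Trac at 0.

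**Figure D4:**
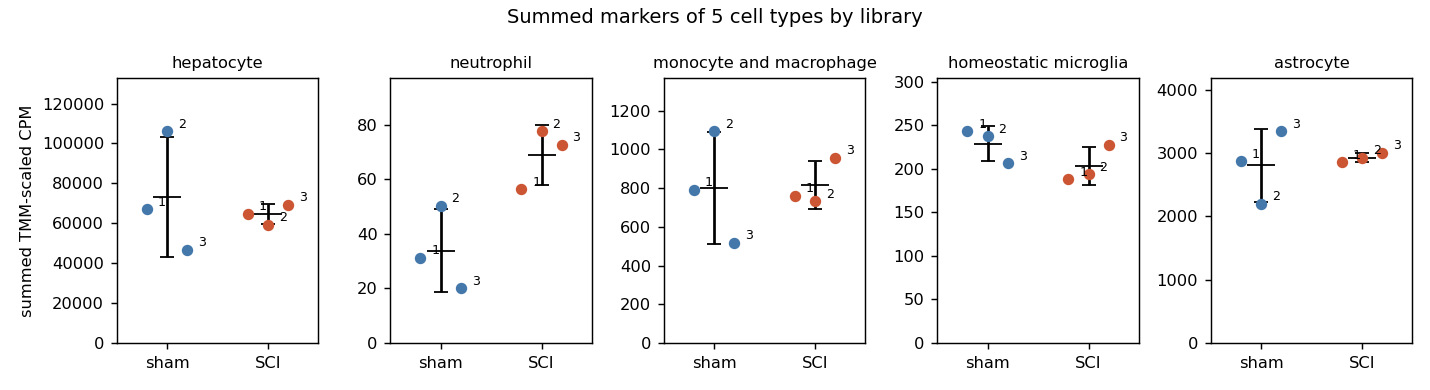
Summed TMM-scaled CPM (y axis, linear from 0, a separate scale in each panel) of the markers of 5 cell types in the 3 sham and 3 SCI libraries, numbered by replicate, with bars for mean and SD. Neutrophil sums were 56.3 to 77.5 CPM in SCI, above the 20.1 to 50.2 CPM of sham, and the other sums overlapped, with sham 2 highest for hepatocyte markers (106076 CPM).

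Genes whose level followed that of Socs3 most closely over the 6 libraries were ranked by Pearson's r of log2 CPM among 10439 genes with a mean of at least 5 CPM. The first 5 were H3f3b (r = 0.994), Dtx2 (0.984), Tcaim (0.983), Esam (0.979) and Srgn (0.979). H3f3b encodes a histone H3.3, Dtx2 a ubiquitin ligase of the Notch pathway, Esam an adhesion molecule of endothelial cells and Srgn a proteoglycan of secretory granules. Their changes were of different size. Srgn went from 4.23 ± 0.802 to 13.0 ± 4.62 CPM and was called (log2 fold change 1.59 ± 0.31, edgeR adjusted p = 0.0171), while H3f3b had a log2 fold change of 0.42 ± 0.18 (0.602). The 6 points fall into the study's groups, so these coefficients rest largely on the difference between the groups.

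**Figure D5:**
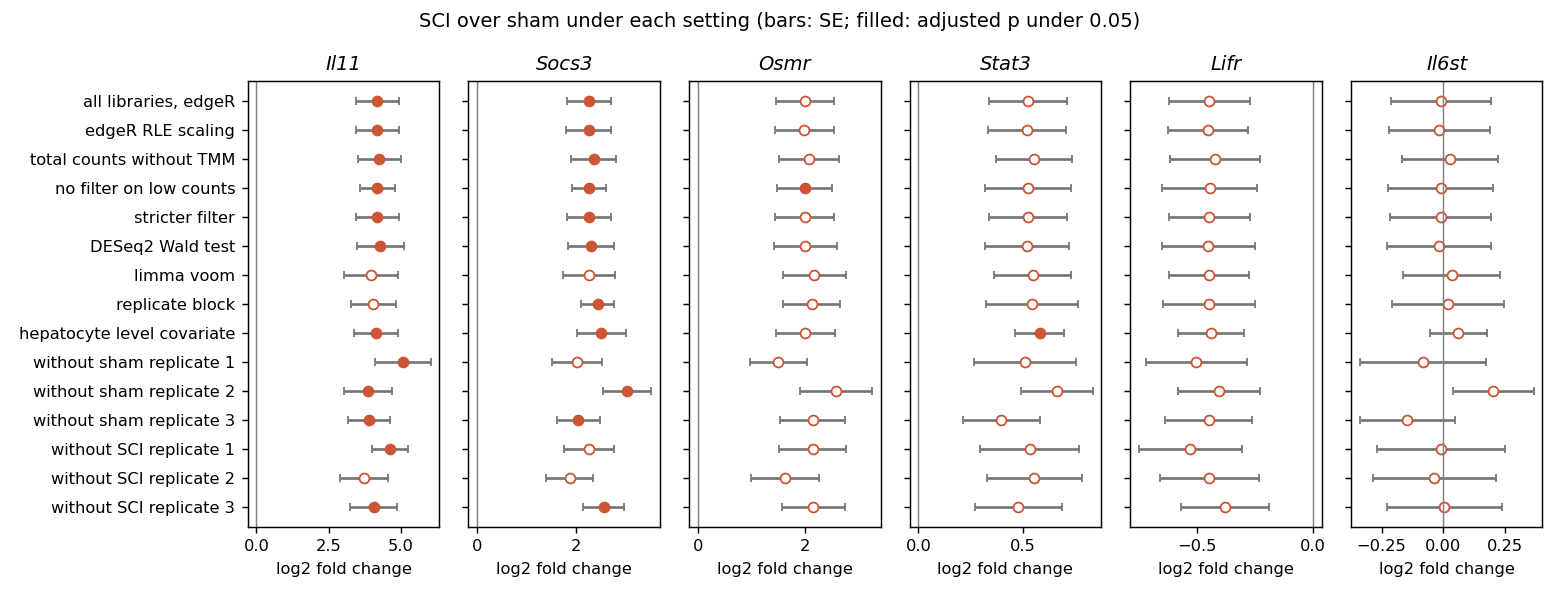
log2 fold change of SCI over sham (x axis, a separate scale in each panel) of the 6 tested genes under each of 15 fits (y axis), with bars for the SE and filled points where the adjusted p was under 0.05. Il11 ranged from 3.74 to 5.08 and Socs3 from 1.87 to 3.02, Osmr was called with no filter on low counts and Stat3 with the hepatocyte covariate, and Il6st lay on both sides of 0.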

How the data were processed

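RNA of spinal cord tissue was measured in 3 SCI and 3 sham libraries made with the Lexogen QuantSeq Forward kit, per the labels. The authors deposited whole-number counts per Ensembl gene, aligned with STAR 2.7.2b to mm10 with Ensembl annotation of GRCm38, per the labels' design text. DESeq2 1.24.0 is among the tools in the submitters' processing notes. Not given in the sources used here are the counting tool and its strand setting. Counts were not normalized by the authors, and a count of 3 corresponded to 0.260 to 0.880 CPM per library.

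Symbols came from the GENCODE M21 names (42462 of 43432 identifiers), and identifiers without a symbol held 0.0884% of counts. Genes passed edgeR's filterByExpr (13560 of 21524 with a count), were scaled by TMM and tested by the edgeR 4.0.16 quasi-likelihood F test with robust estimation in R 4.3.3, with Benjamini-Hochberg adjustment over all genes tested and calls under 0.05. The SE is the absolute log2 fold change over the square root of F. The steps were tested on simulated data. Alternatives were edgeR's RLE scaling, total counts, no filter, a filter at 1 CPM in 3 libraries, DESeq2 1.42.0, limma 3.58.1 voom, the replicate number as a block, the hepatocyte level as a covariate, and leaving out each library. The design text gives 3 mice per group. No pair of libraries in 1 group agreed within sampling noise (chi-square per degree of freedom 6.97 to 38.0), so none was taken for a library deposited more than once.

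The members and the gene lists were chosen with earlier results of these data known. Named were the 10 members, called genes of each list (at most 8) or otherwise the 2 with the smallest p, the 2 most abundant markers where a marker list is given beside a result, and the 5 genes most like Socs3. Some genes under this rule are left out of the text. Marker lists that stand beside no result (endothelial, fibroblast, pericyte, Schwann and muscle) had overlapping sums in the groups. Intervals and floors cover counting error only, since PCR copies of a molecule were counted as separate reads unless identifiers were used.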

Additional observations from a re-analysis of the deposited data

How the results depend on the processing

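The log2 fold changes of Il11, Osmr, Stat3 and Socs3 were positive and that of Lifr negative in all 14 alternatives, and Il6st took both signs, between -0.15 and 0.20, never called. Of the 10 genes, 2 were called higher with all libraries, 4 with no filter on low counts (Il6, Il11, Osmr and Socs3), 0 with limma voom and 1 with the replicate block. Leaving out 1 library gave 0 to 2 called higher, with 0 without SCI 2, 1 without sham 1 and 1 without SCI 1. None of the 10 was called lower under any alternative.

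Over all genes, 120 were higher and 6 lower. With no filter these were 182 and 42, with the hepatocyte level 212 and 30, with the DESeq2 Wald test 141 and 11, and with the replicate block 81 and 1. Leaving out 1 library gave 62 to 132 higher and 1 to 14 lower. Of calls, 95.2% were higher in the reported fit, 81.2% with no filter. Of the STAT3-responsive genes, 5 were higher with all libraries, 10 with the hepatocyte level and 2 to 7 without 1 library. Of other JAK-STAT inhibitors, 0 were called higher in the reported fit, 1 with no filter (Ptpn1), 1 with DESeq2 (Ptpn1) and 2 with the hepatocyte level (Ptpn1, and Socs2, named after its values were seen). Of the genes listed as acute phase genes, 0 were called higher, and 1 with no filter (A2m). The other ligands, other receptor chains and JAK and STAT lists had 0 calls in all 14 alternatives. The floor-based value for Il6 without each library, chosen after seeing the data, was 4.08-fold or more. The cause of these differences was not tested.

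Replicate numbers are not said to pair the samples. Deviations from the group means correlated at -0.172 to -0.0654 between libraries of the same number, and no library correlated best with its own. With 3 libraries in a group such deviations are bound to each other, so these values do not decide whether the numbers pair. With the number as a replicate block, Il11 had a log2 fold change of 4.06 (edgeR adjusted p = 0.0600) and Bcl2l1 one of 0.89 (0.119), and Socs3 one of 2.43 (0.0105). Depth limits Lif, Osm and Clcf1, which had at most 13 counts in a group.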
